A study of Rattus norvegicus with 2 samples.

Results

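The genes described here are those of major histocompatibility complex (MHC) class I antigen presentation in the rat meniscus, a fibrocartilage disc of the knee joint. They are the 5 heavy chain genes RT1-A1, RT1-A2, RT1-CE5, RT1-CE10 and RT1-T24-4, the light chain gene B2m, the transporter genes Tap1 and Tap2, and the tapasin gene Tapbp. They were taken by symbol, and all 9 were among the 25399 genes of both libraries. They had been picked from measured values of these 2 libraries. Their aged against young values are therefore a description and support nothing.

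The study profiled single meniscus cells from 1 aged and 1 young library with a droplet 3' kit, which counts unique molecular identifiers (UMIs), 1 for each captured RNA molecule, near the 3' end of the transcript. Both groups are rat meniscus tissue that was minced, digested with protease and collagenase P, and sorted for living cells. The labels give the ages only as aged and young, and give no strain, sex, treatment or number of animals, so differences between animals, strains and ages cannot be told apart. With 1 library per age there is no test. Values carry exact 95% intervals, which cover counting error only.

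There were 8422 barcodes with 47228750 UMIs from aged tissue and 9914 barcodes with 65051972 UMIs from young tissue. Filtering left 6085 aged and 8773 young cells, with medians of 3686 and 3846 UMIs, and 18 barcode sequences occurred in both libraries. Cells were sorted into types by UMIs of 1 marker each: Cd79a for the B lineage, S100a8 for neutrophils, Csf1r for macrophages or monocytes, Cd3e for T cells, Alas2 for erythroid cells, and Dcn without Ptprc for stromal cells. These 6 gates held 99, 771, 390, 199, 64 and 520 aged cells and 1189, 1109, 299, 91, 174 and 91 young cells, in that order. A Jchain gate for plasma cells was empty in both libraries as set. A gate of at least 5 Jchain UMIs, added after the data were seen, held 346 aged and 35 young cells. Blood and marrow types thus made up most of the gated cells. The 6 gates held only 33.6% of the kept aged and 33.7% of the kept young cells, and 3992 aged and 5744 young cells passed none of them. Values by gate describe the gated cells alone. Cartilage markers were concentrated in the stromal gate, where Col2a1, Acan, Chad and Snorc together gave 820 CPM (counts per 1000000 UMIs of the gate) in aged cells against 4766 CPM in young ones.

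Class I molecules carry peptides from inside the cell to its surface, where CD8 T cells and natural killer cells read them. A polymorphic heavy chain pairs with the invariant light chain, beta-2-microglobulin, encoded by B2m. Proteasomes cut proteins into peptides, the TAP1 and TAP2 proteins pump these into the endoplasmic reticulum, and tapasin holds an empty heavy chain beside the transporter until a peptide binds. In the rat the MHC is named RT1. Its RT1-A region holds the classical heavy chains, and the number of RT1-A genes differs between rat strains. The RT1-CE and RT1-T24 genes lie in other class I clusters and are mostly counted as nonclassical. Many of the heavy chain genes are close copies, so reads from 1 copy can be assigned to another, and values for a single RT1 gene are uncertain. The sum over the copies is less exposed to that splitting.

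The likeness of the copies can be read from their upstream sequences, which are shown because class I genes respond to NF-kB and interferon through 2 short elements there. In the RefSeq promoter table for GRCr8, which matched all 9 genes, the windows on chromosome 20 that end with the interferon element are these, with both motifs in capitals and each written 5′ to 3′ on its gene's strand.
RT1-A1, chr20:4907035-4907111, plus strand: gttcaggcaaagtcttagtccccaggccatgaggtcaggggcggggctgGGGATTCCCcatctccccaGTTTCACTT
RT1-A2, chr20:4872649-4872724, plus strand: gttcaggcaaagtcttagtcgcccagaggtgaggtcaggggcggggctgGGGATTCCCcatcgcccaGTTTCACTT
RT1-CE10, chr20:3385146-3385221, minus strand: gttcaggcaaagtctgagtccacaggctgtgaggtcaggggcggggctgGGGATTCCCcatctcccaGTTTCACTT
RT1-CE5, chr20:3484229-3484305, minus strand: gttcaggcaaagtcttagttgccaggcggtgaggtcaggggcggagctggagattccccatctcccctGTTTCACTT

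The capitals mark GGGATTCCC, of the NF-kB type, and GTTTCNNTT, of the interferon response type, each searched on both strands of the 250 bases before the start. GGGATTCCC occurred in 91 of 33469 promoters of this length in the table (0.272%) and GTTTCNNTT in 1850 (5.53%). RT1-A1, RT1-A2 and RT1-CE10 held both, whereas RT1-CE5 held the interferon type without this NF-kB spelling. Tapbp held GTTTCNNTT elsewhere, and RT1-T24-4, B2m, Tap1 and Tap2 held neither spelling in their 250 bases. Aligned in pairs, the RT1-A1 window shared 72 of 74 bases with RT1-A2 beside 5 gapped positions, 72 of 76 with RT1-CE10 beside 1, and 70 of 77 with RT1-CE5 beside 0. Matches of this kind describe letters, not bound sites, and the counted reads lie at the other end of the transcript.

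The first question was whether total class I RNA differed between the libraries once the 5 heavy chain genes were summed. It was higher in aged stromal cells and aged neutrophils, and close or somewhat lower in the aged B lineage, macrophage or monocyte and T cell gates. Aged stromal cells gave 2282 CPM (2230 to 2335) and young ones 523 CPM, a log2 ratio of 2.13 (2.02 to 2.23). Aged neutrophils gave 2200 CPM and young ones 912 CPM, a log2 ratio of 1.27 (1.21 to 1.33). In both gates the intervals of the 2 libraries lay far apart.

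Erythroid precursors had the lowest class I level of the 6 gates in the aged library, at 810 CPM, against 543 CPM in the young library. Their log2 ratio of 0.58 (0.44 to 0.72) was just under 1.5-fold. Macrophages or monocytes gave 1791 CPM in aged cells against 2222 CPM in young ones, which is a log2 ratio of -0.31 (-0.35 to -0.27). These cells present antigen to T cells, and theirs was the lowest ratio of the 6 gates.

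T cells had the highest class I level of the 6 gates in both libraries, at 2710 CPM in aged cells against 3010 CPM in young ones. In the B lineage gate the aged value was 948 CPM and the young value 1014 CPM, with a log2 ratio of -0.10 (-0.19 to -0.0012). The aged B lineage gate included 11 cells with at least 5 Jchain UMIs. Without Jchain-positive cells, a gate added after the data were seen, B lineage cells gave 1158 CPM in aged cells against 1093 CPM in young ones, and the interval of the log2 ratio, -0.04 to 0.20, included 0. Over the 6 gates 2 were at least 1.5-fold higher in aged and 0 at least 1.5-fold lower.

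**Figure D1:**
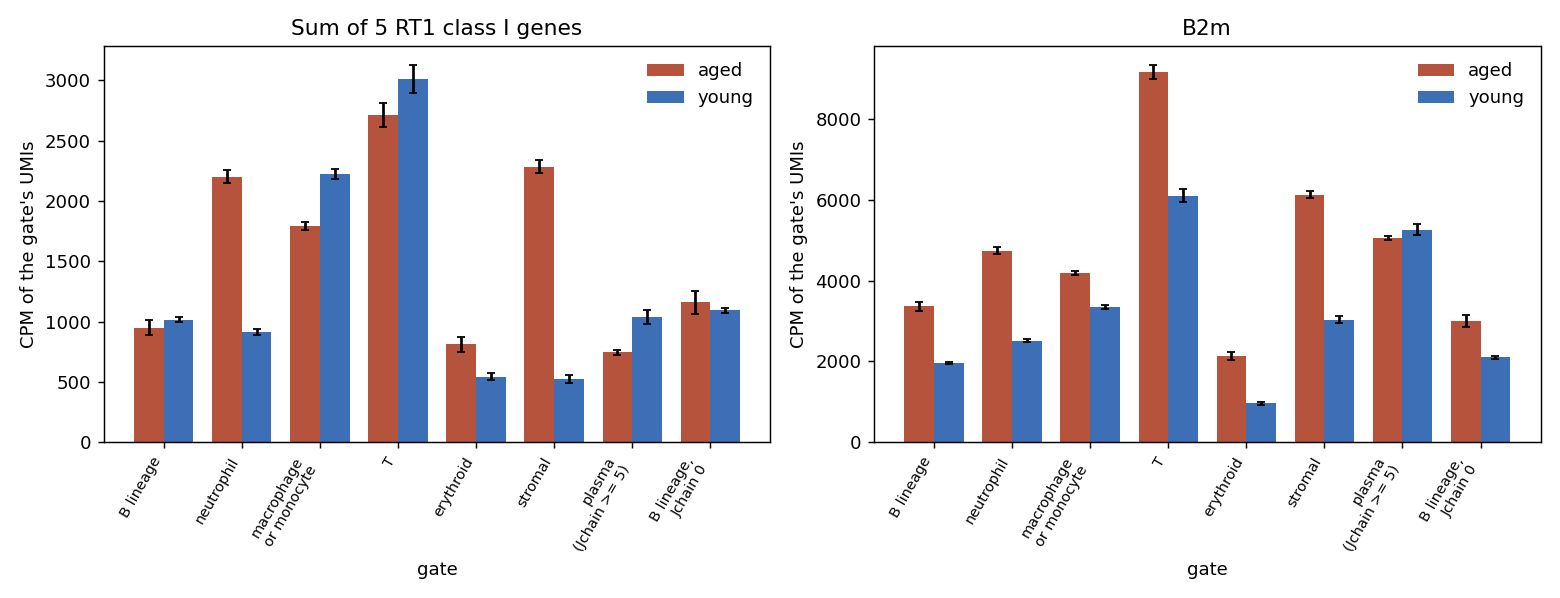
Level of the summed 5 RT1 class I genes (left) and of B2m (right) in CPM of each gate's UMIs, by gate, for the aged and the young library; bars are 1 library each and error bars are exact 95% Poisson intervals. The class I sum stands far higher in aged than in young cells in the neutrophil and stromal gates, and B2m is higher in aged cells in every gate but the added plasma gate.

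The order of the types differed between the libraries. In aged cells stromal cells and neutrophils followed T cells, with intervals of 2230 to 2335 and 2147 to 2255 CPM that overlap. In young cells the macrophage or monocyte gate came second, and erythroid and stromal cells were last, at 543 and 523 CPM. The young intervals of those 2 gates, 512 to 575 and 487 to 560 CPM, overlap. With all 21 class I features young erythroid cells, at 895 CPM, were below young stromal cells, at 1278 CPM. The range over the 6 gates was 3.35-fold in aged and 5.76-fold in young cells.

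Class I genes outside the 5 were then added, since reads could also fall on them. With all 21 RT1 class I features of the files, stromal cells gave 3159 CPM in aged cells against 1278 CPM in young ones, which is a log2 ratio of 1.31. Neutrophils gave 3083 and 1743 CPM, a log2 ratio of 0.82. The difference therefore became smaller in both types but kept its direction. Much of the shift came from RT1-CE4, which held 51.9% of all class I UMIs in young stromal cells and 14.3% in aged ones, and 39.2% and 19.9% in neutrophils.

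The stromal gates differed in make-up, and those values stand beside the class I result. The 5 stromal markers found, Col1a1 among them, summed to 8450 CPM in aged against 83272 CPM in young stromal cells, and the median depth was 5820.5 and 15933 UMIs per cell. Col1a1 itself, a fibrous collagen gene, stood at 2442 CPM in aged against 45556 CPM in young stromal cells. Among stromal cells with at least 10 Col1a1 UMIs, class I was 2333 CPM in 216 aged cells and 563 CPM in 82 young cells, with a log2 ratio of 2.05 (1.94 to 2.16). The median depth of those cells was 6361 and 16402 UMIs. With every cell thinned to 2000 UMIs the ratio of the whole gate was 2.33. The part of cell make-up in the difference was not tested.

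Interferon response genes were read as a further list, because interferons induce class I. Isg15, Ifit3, Mx1, Oas1a, Bst2, Ifitm3 and Irf7 together gave 3492 CPM in aged against 1830 CPM in young stromal cells. In neutrophils they gave 1452 and 731 CPM. In the macrophage or monocyte gate the sums were 478 and 346 CPM, and in T cells 328 and 319 CPM. The B lineage gave 164 and 136 CPM, and erythroid cells 114 and 47.0 CPM. Ifitm3 made up most of the stromal sums, at 2749 and 1568 CPM, and Ifit3 much of the neutrophil ones, at 760 and 209 CPM. Some genes of the list went the other way, such as Oas1a at 154 and 280 CPM in neutrophils and Mx1 at 34.0 and 75.8 CPM in T cells. All 7 genes were detected in aged stromal cells, and 2 of them, Ifit3 and Mx1, were at 0 in young stromal cells. Their part in the class I difference was not tested.

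Heavy chain genes were next taken singly. RT1-A1, a classical heavy chain, stood at 672 CPM in aged against 47.5 CPM in young neutrophils, a log2 ratio of 3.82 (3.62 to 4.03). In stromal cells it stood at 728 CPM in aged cells against 14.1 CPM in young ones, the latter from 22 UMIs, with a log2 ratio of 5.69 (5.09 to 6.37), or 4.37 with lower gate thresholds. It was 597 and 247 CPM in macrophages or monocytes, 917 and 384 CPM in T cells, 284 and 133 CPM in the B lineage and 187 and 24.7 CPM in erythroid cells. RT1-A1 was thus at least 1.5-fold higher in aged cells in all 6 gates, with log2 ratios from 1.09 to 5.69. Over all genes with at least 20 summed UMIs in these gates, 12.1% were higher and 28.2% lower by that rule.

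RT1-A2, its classical neighbour, went the other way in 4 gates. It stood at 366 CPM in aged against 893 CPM in young macrophages or monocytes, a log2 ratio of -1.29 (-1.37 to -1.21). T cells gave 494 and 1105 CPM, the B lineage 157 and 401 CPM, and erythroid cells 138 and 255 CPM. In neutrophils and stromal cells, the gates with the higher aged sum, RT1-A2 was 486 and 405 CPM and 341 and 256 CPM, within 1.5-fold. The added plasma gate had 92.0 CPM in aged cells against 425 CPM in young ones, which is a log2 ratio of -2.21. It was -0.75 under TMM scaling, which centres most genes of a gate.

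RT1-CE10 was itself a large part of the total and was the member most like it. It stood at 741 CPM in aged against 246 CPM in young stromal cells, a log2 ratio of 1.59 (1.43 to 1.75). Neutrophils gave 793 and 441 CPM, and T cells 936 and 1286 CPM. Macrophages or monocytes gave 628 and 960 CPM, the 1 gate of the 6 that was at least 1.5-fold lower. The added plasma gate gave 253 and 510 CPM, a log2 ratio of -1.01 that was 0.44 under TMM scaling. In B lineage cells without Jchain the values were 447 and 452 CPM, and the interval of the log2 ratio, -0.22 to 0.18, included 0.

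RT1-CE5 was low in young cells of every gate, from 2.56 CPM in stromal cells, on 4 UMIs, to 140 CPM in T cells. In aged cells it ran from 61.9 CPM in erythroid to 294 CPM in stromal cells. The log2 ratio in neutrophils was 4.38 (3.96 to 4.84), from 217 and 10.4 CPM, or 3.50 with at least 1000 genes and 10% mitochondrial counts at most. Like RT1-A1, RT1-CE5 was at least 1.5-fold higher in aged cells in all 6 gates, with the smallest log2 ratio, 0.71, in T cells. With cells thinned to 2000 UMIs its log2 ratio in macrophages or monocytes was -0.11 in place of 0.75.

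RT1-T24-4 was ordered differently over the gates. Erythroid cells, the lowest aged gate of the 6 for every other heavy chain, had its highest aged level among the 6 gates, 212 CPM, against 9.96 CPM in young erythroid cells, a log2 ratio of 4.41 (3.76 to 5.14). With cells of at least 200 genes that ratio was 6.14. The added plasma gate, too, gave 140 and 13.9 CPM, and plasma cell markers moved with the gene in erythroid cells. The 6 plasma markers summed to 311 CPM in aged erythroid cells against 18.02 CPM in young ones, Mzb1 was 269 and 16.1 CPM and Jchain 110 and 0.474 CPM, and 4 of 64 aged cells had at least 5 Jchain UMIs. Their part in the erythroid value was not tested. Aged stromal cells gave 179 CPM and young ones 3.84 CPM, the latter from 6 UMIs, and the log2 ratio of 5.54 was 3.83 with lower gate thresholds. In the B lineage gate the values were 75.5 and 42.4 CPM, but without Jchain-positive cells they were 39.7 and 47.6 CPM, so that higher value rests on the Jchain-positive cells of the aged gate.

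**Figure D2:**
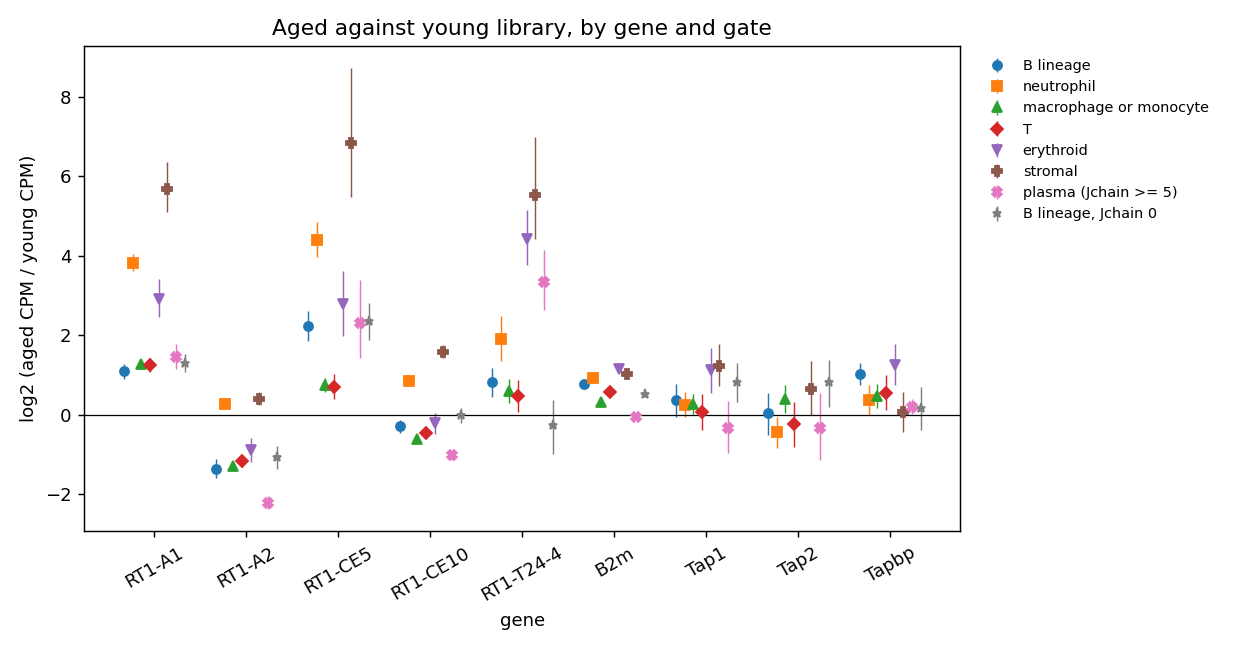
Log2 ratio of aged over young CPM for each of the 9 genes (horizontal axis), 1 symbol per gate, with exact conditional binomial 95% intervals as lines. RT1-A1 and RT1-CE5 lie above 0 in all gates, RT1-A2 lies below 0 in all gates but the neutrophil and stromal ones, and Tap1, Tap2 and Tapbp lie nearer to 0.

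How the class I UMIs divided among the copies was then set beside the total. In aged cells RT1-A1 took a similar share of the 5-gene sum in most gates, 30.5% in neutrophils (29.4 to 31.7), 33.4% in macrophages or monocytes, 33.8% in T cells, 29.9% in the B lineage and 31.9% in stromal cells. Erythroid cells were lower at 23.1%, and there RT1-T24-4 took 26.2%. In young cells the RT1-A1 share was 13.1% in the B lineage (12.5 to 13.8), 12.8% in T cells, 11.1% in macrophages or monocytes, 5.20% in neutrophils, 4.55% in erythroid and 2.70% in stromal cells. The shares did not overlap between the libraries in any gate, and all 6 gates differed by at least 10 percentage points.

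The share of RT1-A2 mirrored this. It lay between 14.9% in stromal cells and 22.1% in neutrophils in the aged library, and between 36.7% in T cells and 49.0% in stromal cells in the young library. Per RT1-A2 UMI, aged cells had 1.38 RT1-A1 UMIs in neutrophils and 2.14 in stromal cells, and young cells had 0.117 and 0.0550. RT1-CE10 took a lower share of the 5-gene sum in aged cells of each gate, from 36.4% against 41.4% in the B lineage to 25.9% against 44.9% in erythroid cells. Its share of all 21 class I features did not go 1 way. It was 26.94% against 26.95% in the B lineage, and higher in aged neutrophils (25.7% against 25.3%) and stromal cells (23.5% against 19.2%). It was lower in aged macrophages or monocytes (26.6% against 31.5%), T cells (26.5% against 32.3%) and erythroid cells (18.3% against 27.2%). In the B lineage without Jchain-positive cells the sums were within 1.5-fold while the RT1-A1 share was 31.6% in aged and 13.5% in young cells, whereas in stromal cells and neutrophils both the sum and the division differed. The assignment of reads among the copies was not tested.

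**Figure D3:**
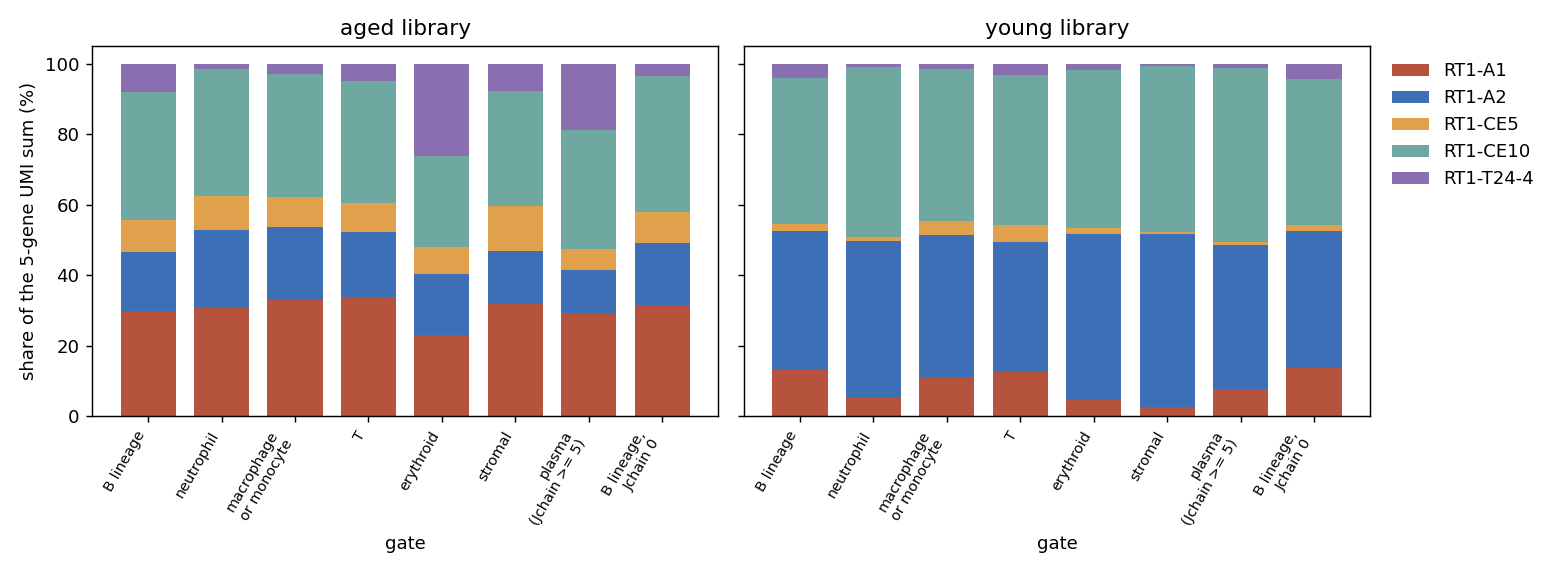
Share (%) of each of the 5 RT1 class I genes in their summed UMIs, by gate, in the aged library (left) and the young library (right). RT1-A1 takes 23.1% to 33.8% in the 6 aged gates and 2.70% to 13.1% in the young ones, where RT1-A2 and RT1-CE10 take most of the sum.

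The division was also read cell by cell, to see whether single cells held 1 copy or a mixture. Cells with at least 10 class I UMIs were thinned to 10, which left 2334 of 6085 kept aged and 2495 of 8773 kept young cells. RT1-A1 gave 2 to 8 of the 10 UMIs in 2006 aged cells (85.9%, 84.5 to 87.3) and in 851 young cells (34.1%, 32.2 to 36.0). It gave none in 75 aged (3.21%) and 796 young cells (31.9%), and 0 cells in either library had 9 or 10. RT1-A2 gave 2 to 8 of 10 in 1268 aged (54.3%) and 2337 young cells (93.7%). RT1-CE10 did so in 89.2% of the aged and 96.0% of the young cells. Most of these cells in both libraries thus carried UMIs of several copies at once. The medians were 3 RT1-A1 UMIs in aged and 1 in young cells.

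The same RT1-A1 difference was seen within the gates. RT1-A1 gave 2 to 8 of 10 UMIs in 90.3% of 351 aged and 31.3% of 275 young macrophages or monocytes. For T cells this was 89.9% of 129 aged cells against 36.6% of 82 young cells. For neutrophils it was 83.5% of 273 against 13.8% of 87 cells, and for stromal cells 85.3% of 312 against 6.06% of 33.

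**Figure D4:**
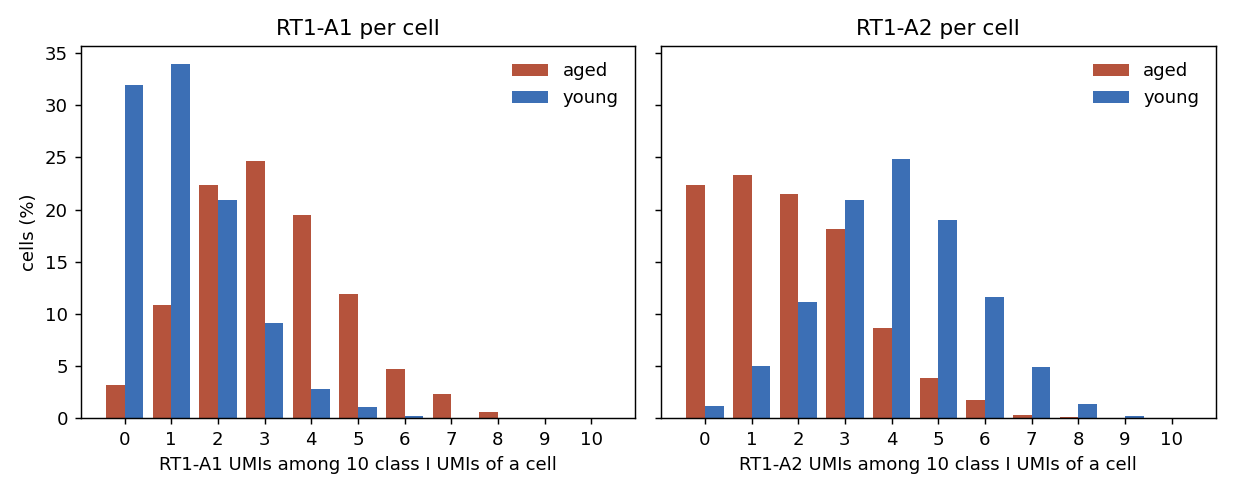
Percent of cells (vertical axis) by the number of RT1-A1 (left) or RT1-A2 (right) UMIs among 10 class I UMIs of a cell (horizontal axis), for 2334 aged and 2495 young cells. Aged cells peak at 3 RT1-A1 UMIs and young cells at 1, and the order is reversed for RT1-A2.

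B2m, the light chain of every class I molecule, is a single gene, so it is not exposed to splitting among copies. It was 6130 CPM (6045 to 6216) in aged and 3032 CPM in young stromal cells, a log2 ratio of 1.02 (0.97 to 1.06). Aged neutrophils gave 4748 CPM and young ones 2516 CPM, a log2 ratio of 0.92 (0.88 to 0.95). Aged erythroid cells gave 2133 CPM and young ones 960 CPM, a log2 ratio of 1.15, the highest of the 6 gates. B2m was higher in aged cells in all 6 gates.

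In T cells, with the highest B2m level in both libraries, the values were 9174 and 6114 CPM, a fold just above the 1.5 used for a call. The B lineage gave 3368 and 1953 CPM, and without Jchain-positive cells 3000 and 2098 CPM, which is 1.43-fold. The macrophage or monocyte gate had the smallest difference, 4189 and 3351 CPM, a log2 ratio of 0.32 (0.29 to 0.35). There and in the B lineage and T cells, B2m was higher in aged cells while the heavy chain sum was not. In the added plasma gate B2m was 5058 and 5263 CPM.

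Set against each other, B2m gave 2.16 UMIs per class I UMI in aged and 2.76 in young neutrophils. In stromal cells the ratio was 2.69 in aged and 5.80 in young cells, the largest young value of the 6 gates. In T cells it was 3.39 and 2.03, and in macrophages or monocytes 2.34 and 1.51. Against the summed heavy chains, the ratio was thus higher in young stromal cells and neutrophils. It was higher in aged cells of the other 4 gates. Against all class I features the direction turned in neutrophils, where aged over young folds were 1.89 for B2m and 1.77 for class I. The direction held in stromal cells, with folds of 2.02 for B2m and 2.47 for class I.

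The transporter genes were measured at much lower depth. Tap1 was 57.3 CPM (49.3 to 66.2) in aged and 24.3 CPM (17.2 to 33.4) in young stromal cells, a log2 ratio of 1.24 (0.73 to 1.78). Erythroid cells gave 61.9 and 28.5 CPM, a log2 ratio of 1.12 (0.55 to 1.68). In the other 4 of the 6 gates Tap1 was within 1.5-fold, for example 92.8 and 88.7 CPM in T cells and 52.5 and 44.0 CPM in neutrophils. B lineage cells without Jchain, however, gave 79.4 and 44.9 CPM, a log2 ratio of 0.82 (0.31 to 1.29), where the whole B lineage gate gave 56.4 and 43.3 CPM. The higher class I sum of aged neutrophils thus went with a Tap1 level whose log2 ratio, 0.26 (-0.06 to 0.57), had an interval that included 0.

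Tap2, the partner of Tap1, was 26.2 CPM in aged against 16.7 CPM in young stromal cells, a log2 ratio of 0.65 (0.0028 to 1.35). Neutrophils gave 28.5 and 38.4 CPM, a log2 ratio of -0.43 (-0.82 to -0.04) that was 0.21 with at least 1000 genes and 10% mitochondrial counts at most. Erythroid cells had only 10 aged and 9 young Tap2 UMIs and were not counted. Of the 6 gates, 5 had enough Tap2 UMIs, and the stromal one alone was at least 1.5-fold apart. In B lineage cells without Jchain, the added gate, Tap2 was higher in aged cells, with 53.6 against 30.5 CPM and a log2 ratio of 0.82 (0.19 to 1.39).

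Tapbp, which encodes tapasin, was close between the libraries in stromal cells, where it was 34.3 CPM in aged cells against 32.7 CPM in young ones. With lower gate thresholds its stromal log2 ratio was 0.89 in place of 0.07. It was at least 1.5-fold higher in aged erythroid cells, at 75.3 and 31.3 CPM, and in the aged B lineage gate, at 125 and 60.8 CPM. Without Jchain-positive cells the B lineage values were 65.5 and 57.7 CPM, so that higher value too rests on the Jchain-positive cells. The added plasma gate, with 248 CPM in aged cells against 215 CPM in young ones, had the highest Tapbp level in both libraries. Its Tap1 level, 16.5 and 20.8 CPM, was the lowest in both. Plasma cells secrete large amounts of protein through the compartment in which tapasin works. The part of secretion in the Tapbp level was not tested.

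Counted over the 6 gates, 53 pairs of gene and gate had at least 20 summed UMIs. Of these, 29 were at least 1.5-fold higher in aged, 5 at least 1.5-fold lower and 19 within. The shares over all genes were the 12.1% and 28.2% given above. In stromal cells 7 of 9 were higher and 0 lower, against 17.8% and 16.4% of all genes there. In neutrophils 5 of 9 were higher and 0 lower, against 9.14% and 26.6%. In erythroid cells 6 of 8 were higher and 1 lower, against 28.9% and 12.5%.

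In macrophages or monocytes 3 of 9 were higher and 2 lower, against 10.4% and 17.5% of all genes. In T cells 3 were higher and 1 lower, against 8.26% and 36.9%. In the B lineage gate 5 were higher and 1 lower, against 3.84% and 54%, and without Jchain-positive cells 4 and 1, against 12.5% and 24.2%. In the added plasma gate 3 were higher and 2 lower, against 8.55% and 77.9%. Since the genes were picked from these values, nothing is read from those counts.

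The scale of a gate bears on these ratios. The median log2 ratio of all genes was -0.64 in the B lineage, -0.38 in T cells, -0.23 in neutrophils, -0.15 in macrophages or monocytes, -0.01 in stromal and 0.27 in erythroid cells, and -1.42 in the added plasma gate. Scaling by TMM turned the class I sum of the B lineage to 0.50 and that of T cells to 0.23 and left the macrophage or monocyte gate below 0. The plasma gate's sum turned from -0.48 to 0.98 under TMM, so no direction is given for it.

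The other genes of the pathway came from a list of 30, all in the files, of which 128 pairs of gene and gate had enough UMIs. Of these, 19 were at least 1.5-fold higher in aged, 22 lower and 87 within. Over all genes in the 6 gates, 12.1% were higher and 28.2% lower. The median log2 ratio of the 128 pairs was -0.18. The number of pairs at least 1.5-fold higher was 9 of 99 with a minimum of 100 UMIs. By gate, 4 of 22 list members were higher and 1 lower in stromal cells, against 17.8% and 16.4% of all genes there. In neutrophils 1 of 20 was higher and 1 lower, against 9.14% and 26.6%. In erythroid cells 9 of 19 were higher and 1 lower, against 28.9% and 12.5%. The B lineage had 2 of 23 higher and 12 lower, against 3.84% and 54%. T cells had 1 of 20 higher and 7 lower, against 8.26% and 36.9%. Macrophages or monocytes had 2 of 24 higher and 0 lower, against 10.4% and 17.5%. The lower counts of the B lineage and T cells and the higher count of stromal cells lay near those shares.

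The immunoproteasome subunits, which replace the standard catalytic subunits and shift the peptides that are cut, did not move as a group. Psmb8 was at least 1.5-fold higher in aged cells in 4 of 4 gates with enough UMIs, for example at 11.7 and 3.67 CPM in macrophages or monocytes, a log2 ratio of 1.68 (0.87 to 2.57). Its counts were low, with 65 aged and 16 young UMIs in that gate. In the B lineage gate it had 6 aged and 42 young UMIs and an interval from -0.89 to 1.88, and without Jchain-positive cells its log2 ratio there was -0.93, from 1 aged and 33 young UMIs. Psmb9, which lies beside Tap1 in the MHC, was 104 CPM in aged against 52.5 CPM in young stromal cells, a log2 ratio of 0.99 (0.64 to 1.36), and 220 and 191 CPM in neutrophils. Psmb10 was 73.2 and 70.5 CPM in stromal cells and 182 and 277 CPM in T cells.

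Irf1, an interferon-induced transcription factor that activates class I genes, was chosen after its values were seen. It was 443 CPM in aged against 51.9 CPM in young stromal cells, a log2 ratio of 3.10 (2.77 to 3.44), and 95.1 and 73.0 CPM in neutrophils.

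Class I also differed between cell states within a gate. The markers for these splits were chosen after values were seen. Neutrophils with at most 1 UMI of Camp, a granule gene of immature neutrophils, gave 5174 CPM of class I in 58 aged cells and 2956 CPM in 98 young cells. Those with at least 10 Camp UMIs gave 1706 CPM in 538 aged against 647 CPM in 812 young cells. Camp-low neutrophils were thus 3.03-fold higher than Camp-high ones in aged and 4.57-fold higher in young cells, and the aged value was the higher in both states. For B2m the same folds were 3.42 and 3.13. Median depth was 1955 UMIs in aged and 1800 UMIs in young Camp-low cells, against 3625.5 and 4062 UMIs in Camp-high ones.

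B lineage cells without Jchain differed by cell cycle. Cells without a UMI of the proliferation gene Mki67 gave 1923 CPM of class I in 35 aged and 1799 CPM in 646 young cells. Those with at least 1 gave 995 CPM in 45 aged against 785 CPM in 440 young cells. The fold between the states was 1.93 in aged and 2.29 in young cells. The deeper cells were the Mki67-positive ones, with median depths of 7303 and 11668.5 UMIs, against 2108 and 3453.5 UMIs.

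In the macrophage or monocyte gate, cells with at least 2 UMIs of C1qa, a complement gene of tissue macrophages, gave 4190 CPM of class I in 89 aged and 3361 CPM in 30 young cells. Cells without C1qa gave 1453 CPM in 300 aged against 2172 CPM in 263 young cells. The aged value was thus the higher in C1qa-positive cells and the lower in the others, with log2 ratios of 0.32 (0.22 to 0.42) and -0.58 (-0.63 to -0.53). The lower aged sum of the whole gate was thus seen in the cells without C1qa. Median depth was 5691 UMIs in aged and 10196 UMIs in young C1qa-positive cells, against 13413.5 and 10947 UMIs in cells without C1qa. The part of depth in these ratios was not tested. RT1-A1 took 35.2% and 32.5% of the sum in the aged and 10.7% and 11.2% in the young subsets.

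Stromal cells were split by Ccl2, a chemokine gene of inflamed fibroblasts. Cells with at least 3 Ccl2 UMIs gave 2515 CPM of class I in 107 aged and 693 CPM in 20 young cells. Those without gave 2176 CPM in 359 aged against 427 CPM in 62 young cells. The aged value was more than 3 times the young one on both sides of the split, and the difference between Ccl2-positive and Ccl2-negative cells was small beside it.

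**Figure D5:**
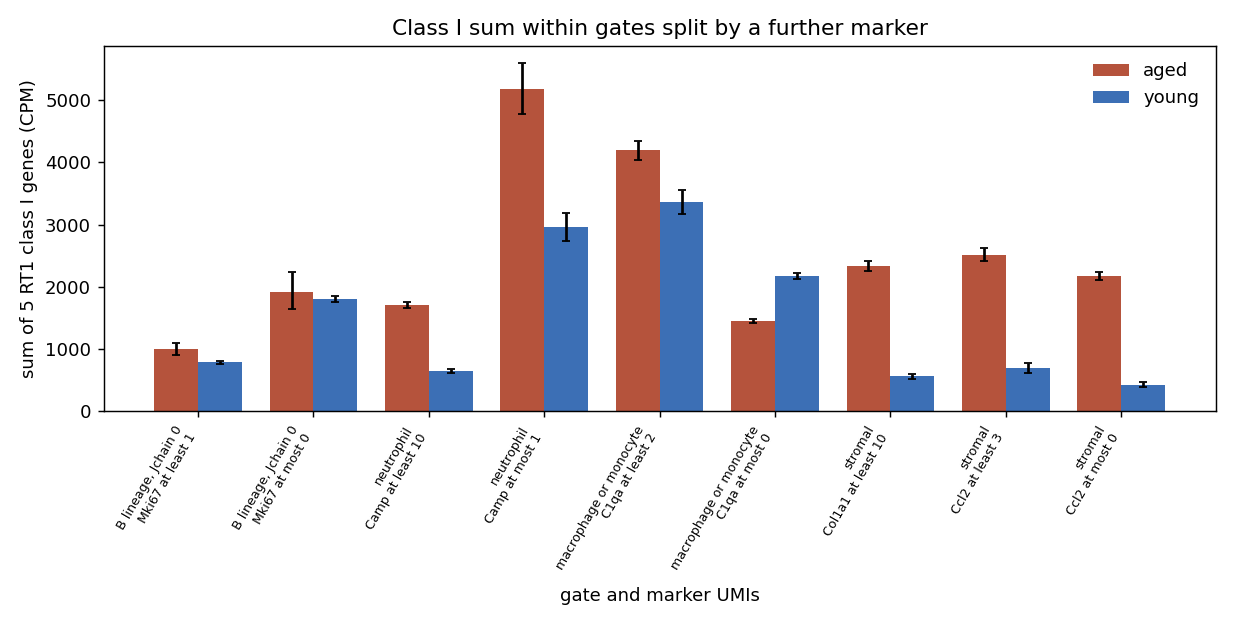
Sum of the 5 RT1 class I genes in CPM (vertical axis) in subsets of 4 gates split by UMIs of a further marker (horizontal axis), for the aged and young libraries, with exact 95% Poisson intervals. Camp-low neutrophils reach 5174 CPM in aged cells against 2956 CPM in young ones, and stromal subsets differ mainly by library.

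The genes most like the class I sum over the 12 columns of gate and library were sought among 2350 genes with a mean of at least 50 CPM. By Pearson's r of log2(CPM + 10) they were Arl5b (0.80), Emd (0.79), Cd48 (0.78), Slfn2 (0.78) and Psmb9 (0.76). Of the 9 genes, B2m had 0.83, Tap1 0.80, RT1-A2 0.72, RT1-T24-4 0.54 and Tapbp 0.24. The heavy chains are part of the sum. The 12 columns share 2 libraries and differ in depth, so these values are a description.

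Marker UMIs of other types were present in the gates. S100a8 stood at 153 CPM in aged against 161 CPM in young stromal cells, and at 461 and 1339 CPM in macrophages or monocytes. Other markers in the macrophage or monocyte gate were higher in aged cells. Dcn stood there at 250 CPM in aged against 3.67 CPM in young cells, and Mzb1 at 132 and 13.8 CPM. Young T cells held 684 CPM of Col1a1, where aged ones held 2.76 CPM, beside 655 and 491 CPM of Cd3e. The stromal markers summed to 835 CPM in young and 19.3 CPM in aged T cells, and aged T cells held 396 CPM of the plasma cell gene Mzb1 against 33.8 CPM in young ones. Summed over S100a9 and 5 other genes, neutrophil markers were 126 and 85.2 CPM in stromal cells, and B lineage markers were 211 and 131 CPM. Endothelial markers summed to 0.623 and 0.640 CPM in stromal cells. How much of the class I counts came from free RNA was not tested. RT1-A1 stood at 14.1 CPM in young stromal cells and at 133 CPM in the young B lineage.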

How the data were processed

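Droplet single-cell RNA sequencing gave 1 aged and 1 young library. Per the file headers, the authors' deposited matrices are whole-number UMI counts from Cell Ranger 6.1.1, not normalized; genome build and annotation: not given in the sources used here. Kept cells had 500 or more genes and no more than 20% of counts from 13 mitochondrial genes (2337 aged and 1141 young barcodes removed). Gates needed 2 Cd79a, 2 Csf1r, 1 Cd3e, 2 Alas2 or 3 Dcn UMIs, or 2% of UMIs from S100a8; 50 aged and 76 young cells in several gates were left out, and doublets were not otherwise removed. The plasma gate (0.5% Jchain) was empty, and 2 gates and the splits were added after the data were seen. Counts were summed per gate and given as CPM; intervals are Poisson, conditional binomial or Clopper-Pearson. A call means at least 1.5-fold and 20 summed UMIs. Members and lists were chosen with earlier results of these data known. All 9 genes were named, plus Psmb8, Psmb9 and Psmb10, pathway genes at least 1.5-fold apart in 4 or more gates, other class I features with at least 1000 UMIs, and the 5 genes most like the sum. The ratio was tested on simulated data. Alternatives covered cell filters, gate thresholds, thinning to 2000 UMIs, per-cell means, scaling and the count minimum. Tools were R 4.3.3 with edgeR 4.0.16 (TMM) and DESeq2 1.42.0 (size factors), and Python 3.11.15 with Biopython 1.88, pandas 2.3.3, scipy 1.17.1 and numpy 2.4.6.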

Additional observations from a re-analysis of the deposited data

Results flagged for a closer look

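Signal was present in RT1 class I genes outside the 5 that were summed, each with at least 1000 UMIs over both libraries. RT1-CE4 was the most abundant, at 306.3 CPM over all kept aged cells and 432.1 CPM over young ones. RT1-S3 stood at 97.2 CPM in aged cells against 56.58 CPM in young ones, and in stromal cells at 324 against 49.96 CPM (log2 ratio 2.70, 2.36 to 3.05). RT1-T24-3 stood at 42.97 and 51.87 CPM, RT1-M3-1 at 26.38 and 27.6 CPM, RT1-N3 at 12.32 and 19.34 CPM, and RT1-CE7 at 11.98 and 12.92 CPM. RT1-N2 stood at 1.413 CPM in aged cells against 23.14 CPM in young ones. It had 0 UMIs in the aged B lineage gate, where the young gate had 312, and 7 and 56 UMIs in T cells.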

How the results depend on the processing

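No paired analysis was possible because each age had 1 library. Of the alternative values, 663 stayed within the spread used and 218 moved beyond it. A further 6 turned sign where the main value was at least 1.5-fold apart with an interval that excluded 0. Sign changes of smaller main values are counted among the others. The class I sum stayed higher in aged stromal cells (log2 ratio 1.31 to 2.33), neutrophils (0.82 to 1.5) and erythroid cells (0.30 to 1.17), and lower in macrophages or monocytes (-0.63 to -0.16). In T cells it ran from -0.32 to 0.23 and in the B lineage from -0.56 to 0.51. The median over gates, 0.24, was 0.76 with higher gate thresholds (where the B lineage gate, with too few aged cells, gave no value), 0.54 with at least 200 genes, 0.11 with a minimum of 1000 genes and a mitochondrial limit of 10%, 0.38 with thinning, 0.40 with TMM, 0.41 with median of ratios and 0.094 with all RT1 class I features. With thinning, and with per-cell means, 1 gate was at least 1.5-fold lower in aged instead of 0. Pairs of the 9 genes at least 1.5-fold lower numbered 3 with higher thresholds, and pathway pairs higher numbered 9 at a minimum of 100 UMIs. The 6 turned signs were these. RT1-CE5 turned in macrophages or monocytes with thinning (-0.11). RT1-CE10 turned in the plasma gate (0.44 with TMM and 0.44 with median of ratios). RT1-T24-4 turned in the B lineage (-0.23 without the 8% of cells with most UMIs, -0.27 with thinning, -0.65 with per-cell means). With 20 class I UMIs per cell, 95.3% of aged and 37.6% of young cells held the middle range of RT1-A1. The cause of these shifts was not tested. Low counts limit Tap2, Psmb8 and the young stromal values of RT1-A1, RT1-CE5 and RT1-T24-4 most.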
